A study of Mus musculus with 6 samples.

Results

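Nuclear receptors are transcription factors, most of which bind small lipophilic ligands, and the 45 genes considered here are members of that superfamily listed by symbol. PPAR gamma was left out of the list. A gene was measured where the platform annotation pairs at least 1 probe set with that gene alone. This held for 42 of the 45 genes, out of 18193 genes measured in all, through 113 probe sets. Nr1h2, Nr1h5 and Nr2e3 had no probe set of their own and were not analysed here. The arrays, of Affymetrix make, were hybridised with RNA from whole liver, and each of the 6 holds 1 mouse, a chow-fed female 8 weeks old. Of these, 3 were C57BL/6J, the standard inbred strain, and 3 were B6.C3H-6T, a congenic strain that carries C3H DNA of chromosome 6 on a C57BL/6J background and that the series title describes as low in serum IGF-1. Where the C3H segment begins and ends is not stated in the labels, and a congenic strain compares a whole segment, not 1 gene. Neither strain is labelled with a transgene, a deletion or a drug.

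In liver, nuclear receptors set much of the metabolic programme. Fatty acids act through PPAR alpha, bile acids through FXR, oxysterols through LXR, foreign compounds through PXR and CAR, and glucocorticoids, thyroid hormone and retinoids through receptors of their own. Many of these receptors bind DNA as partners of RXR, while HNF4 alpha binds as a pair with itself and the ROR proteins bind as single molecules. Transcript level is only part of their activity, since ligand, partner and coregulator supply decide what a receptor does.

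The arrays were alike in distribution, with log2 medians of 6.07 to 6.11 and correlations of 0.994 to 0.997 between arrays across probe sets (features of 1 array are not replicates). The number of arrays limits the precision of every value below. Hepatocyte markers were high on each array, with a list mean of 13.50 to 13.59 in C57BL/6J and 13.61 to 13.67 in B6.C3H-6T. All 12 markers of Kupffer cells and other myeloid cells had a negative difference between B6.C3H-6T and C57BL/6J. Of these 10 had an unadjusted limma p under 0.05, against 5.80% of all genes in that direction, and 0 passed after adjustment. Their list mean was 9.59 to 9.84 in C57BL/6J and 9.26 to 9.49 in B6.C3H-6T. In whole liver, fewer cells of a type and less RNA per cell cannot be told apart. For Sry, Uty and 4 other Y-linked genes, which female mice lack, probe sets had means between 3.61 and 7.23, so a receptor read in that range may not be expressed at all. Sry alone set the top of the range, and the next highest was Zfy2 at 5.33. Zfy2 differed by 0.74 ± 0.20 with no overlap, the 1 gene of the 6 with an unadjusted limma p under 0.05. A probe set of an absent gene thus separated the strains.

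No receptor gene passed the test between the strains. Of the 42 genes, 22 (52.4%) had a negative difference, against 43.9% of all genes, and 20 a positive one, against 56.1%, and the median was -0.01, against 0.02 over all genes. In limma, adjusted over all genes, 0 receptor genes were called at an adjusted p under 0.05, where 0.0715% of all genes were called. An unadjusted p under 0.05 was found for 3 receptor genes (7.14%), against 12.1% of all genes. These were Ppara, Nr1i3 and Nr1h4, the genes of PPAR alpha, CAR and FXR, all with lower means in B6.C3H-6T. The arrays of the strains did not overlap for 5 receptor genes (11.9%), against 17.8% of all genes. Ppara and Nr1i3 were apart and lower (7.49% of all genes were) and Nr1h3, Ppard and Rorb were apart and higher (10.3%). Both shares lay below those of all genes, but they rest on 3 and 5 genes. Without 1 array the count at an unadjusted p under 0.05 ran from 1 to 5, so neither share sets the family apart. The 95% interval lay within 0.5 on either side of 0 for 40 of the 42 genes, the exceptions being Ppara and Nr0b2. That width is loose, since the 5th to 95th percentile of differences over all genes ran from -0.21 to 0.20. The share of all genes within it was not computed.

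**Figure D1:**
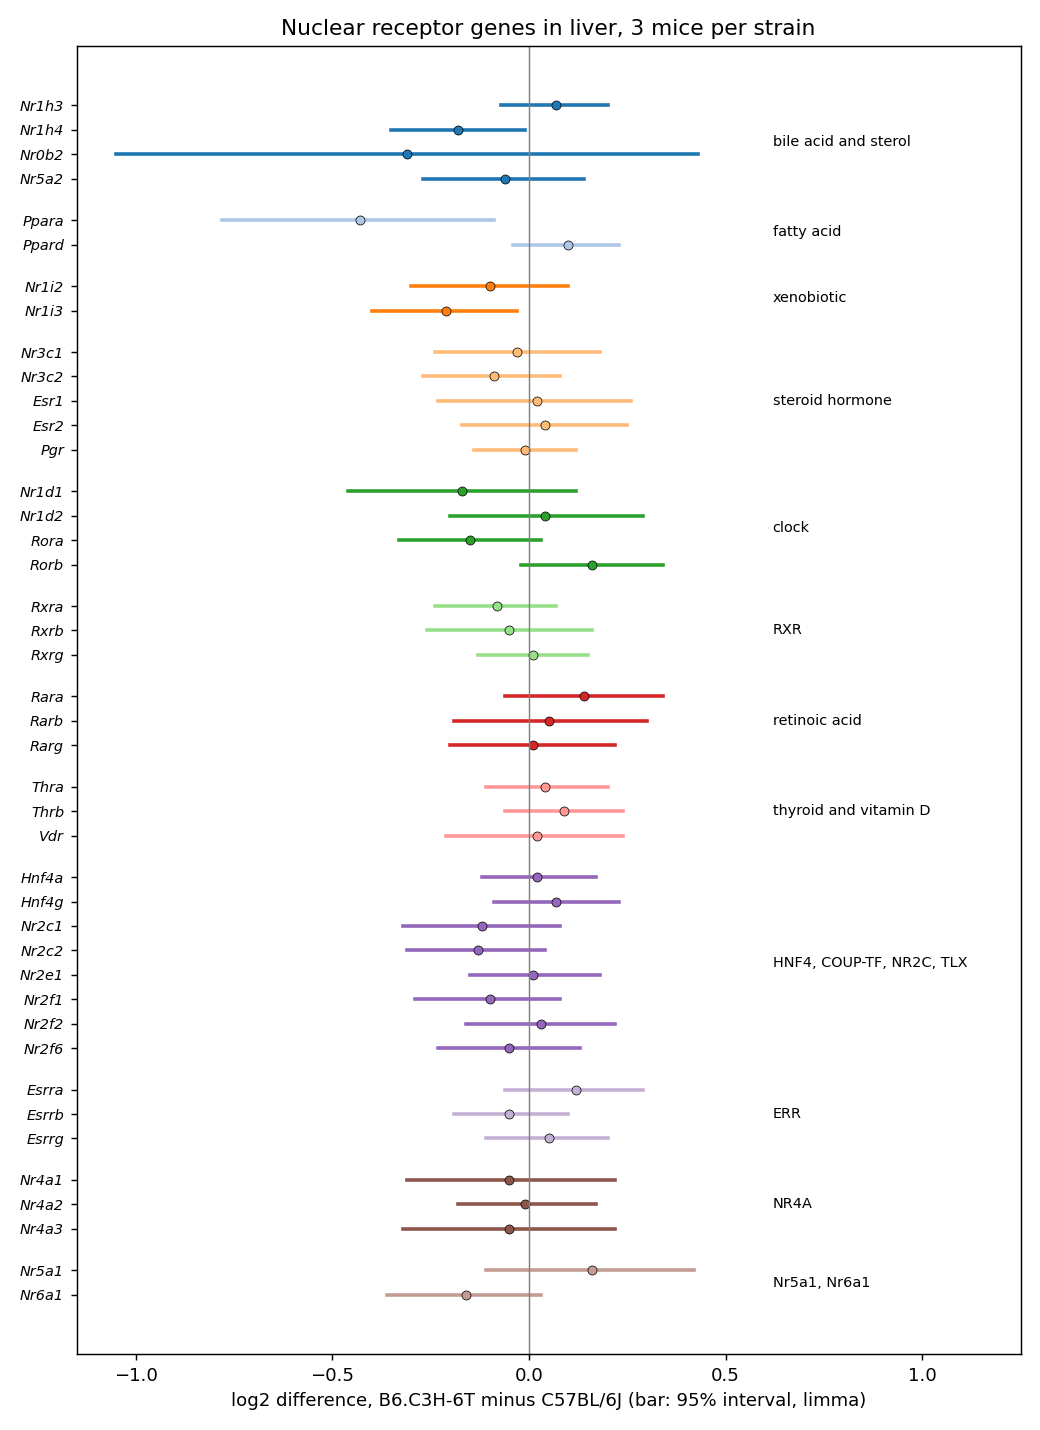
Difference between the strains for each of the 42 receptor genes, on the log2 scale (B6.C3H-6T minus C57BL/6J, 3 mice per strain), grouped by receptor family. Points are differences and bars are 95% intervals from limma, and the widest bars are those of Nr0b2 (-1.05 to 0.43) and Ppara (-0.78 to -0.09).

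The fatty acid receptors came first, since Ppara had the smallest p of the family. PPAR alpha is the fasting sensor that turns on fatty acid oxidation in hepatocytes. Its transcript read 11.29, 11.42 and 11.25 on the C57BL/6J arrays and 11.19, 10.50 and 10.96 on those of B6.C3H-6T. Every B6.C3H-6T array was below every C57BL/6J array, though the first B6.C3H-6T mouse was close to the C57BL/6J range and the second stood well below. The difference was -0.43 ± 0.15 (log2 difference ± SE, 1.35-fold), with a limma adjusted p of 0.333. Without B6.C3H-6T replicate 2 it was -0.24. The spread was wide in B6.C3H-6T, with an SD of 0.35 against 0.09 in C57BL/6J. Both other probe sets of Ppara gave like values, -0.43 ± 0.17 and -0.39 ± 0.18, with B6.C3H-6T replicate 2 again lowest on each. On these, however, the first B6.C3H-6T array (10.41 and 10.98) lay inside the C57BL/6J range. Ppard, the gene of the widely expressed PPAR delta, read 6.29, 6.29 and 6.27 in C57BL/6J and 6.41, 6.39 and 6.34 in B6.C3H-6T. The strains were apart, but by a difference of 0.10 ± 0.06 only (adjusted p = 0.541), in the range of the Y-linked probe sets. Pparg, not a member of the list and a gene of chromosome 6, differed by -0.66 ± 0.10 (adjusted p = 0.0744), from 7.35 to 7.54 in C57BL/6J to 6.60 to 6.94 in B6.C3H-6T.

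**Figure D2:**
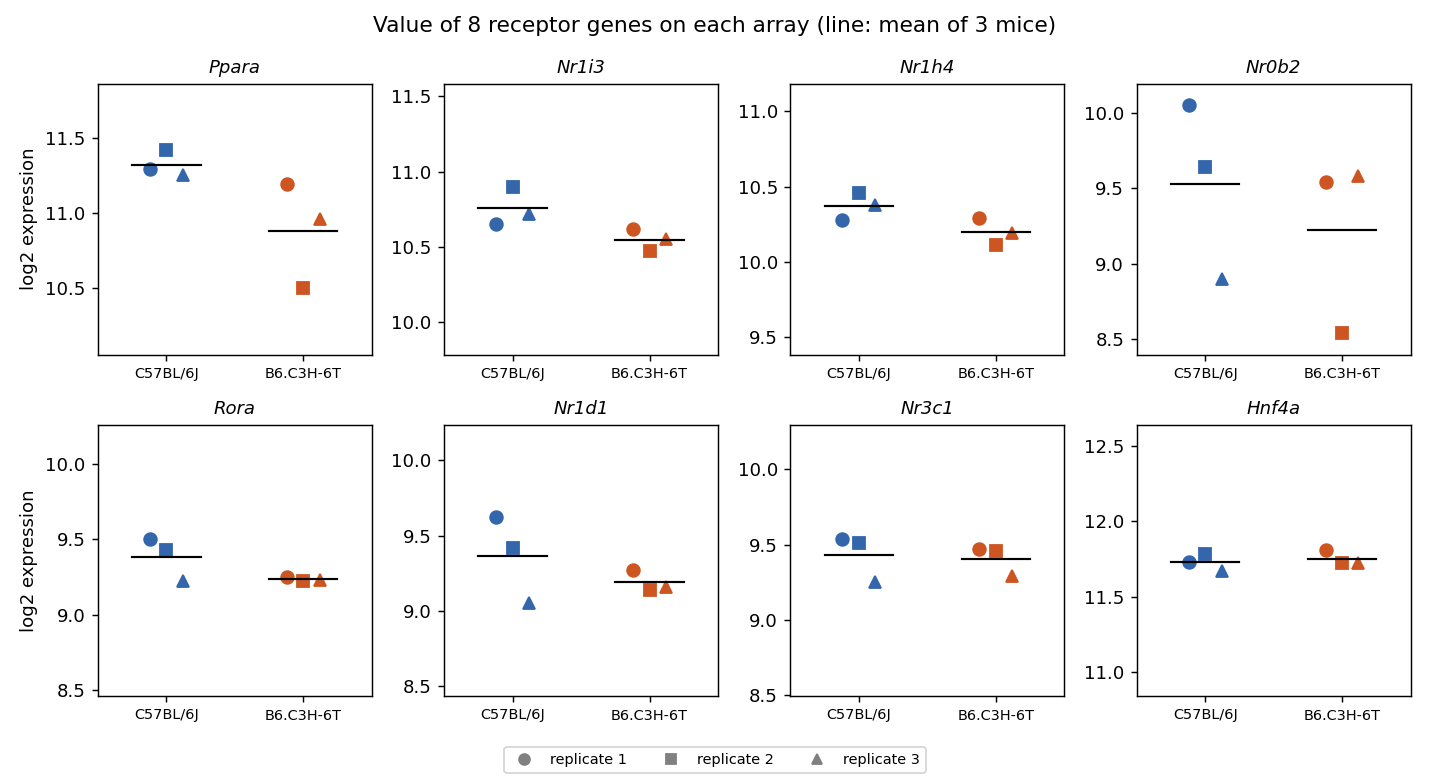
Log2 expression of 8 receptor genes on each array, with C57BL/6J in blue, B6.C3H-6T in orange, symbols for the replicate of each strain and a line at the mean of 3 mice. All panels span the same number of log2 units, so that the scatter of Nr0b2 (8.54 to 10.05) can be set against that of Hnf4a (11.67 to 11.81).

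The xenobiotic receptors CAR and PXR induce cytochrome P450 and conjugating enzymes. Nr1i3, the CAR gene, read 10.65, 10.90 and 10.72 in C57BL/6J and 10.62, 10.47 and 10.55 in B6.C3H-6T. The strains did not overlap, but a gap of only 0.03 separated the highest B6.C3H-6T array from the lowest C57BL/6J array. Its difference was -0.21 ± 0.08 (adjusted p = 0.365), and it rests on a single probe set. Nr1i2, the PXR gene, read 8.95, 8.92 and 8.92 in C57BL/6J and 8.94, 8.63 and 8.91 in B6.C3H-6T. Of these 6 values 5 were within 0.04 of each other and B6.C3H-6T replicate 2 was the low one, which gave a difference of -0.10 ± 0.09 (adjusted p = 0.676). Without that mouse the difference was 0.00 after rounding. A dimmer probe set of Nr1i2 had the same low array (8.12, against 8.59 to 8.75 on the others) and a difference of -0.26 ± 0.12.

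Among bile acid and sterol receptors, FXR senses bile acids, LXR alpha senses oxysterols, and SHP, an inhibitor without a DNA-binding domain, is induced by FXR. Nr1h4, the FXR gene, read 10.28, 10.46 and 10.38 in C57BL/6J and 10.29, 10.11 and 10.19 in B6.C3H-6T. The strains overlapped by 0.01, and the difference was -0.18 ± 0.07 (adjusted p = 0.392). Nr1h3, the LXR alpha gene, read 9.29, 9.35 and 9.30 against 9.41, 9.39 and 9.35. This was a steady transcript, with a pooled SD of 0.03 that lay above only 2.36% of all genes, and its 95% interval of -0.07 to 0.20 holds the strains close together (adjusted p = 0.681). Kupffer cells also express LXR alpha, and the gene did not share the negative differences of the myeloid markers. Nr5a2, the gene of LRH-1, a driver of bile acid synthesis genes, read 9.73, 10 and 9.73 against 9.69, 9.73 and 9.84, with a difference of -0.06 ± 0.09.

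Nr0b2, the SHP gene, varied most between mice. It read 10.05, 9.64 and 8.90 in C57BL/6J and 9.54, 8.54 and 9.58 in B6.C3H-6T. The lowest arrays were 1 of each strain and the ranges overlapped, and the pooled SD of 0.59 was above that of 99.9% of all genes. The difference of -0.31 ± 0.33 (adjusted p = 0.733) ran from -0.63 without C57BL/6J replicate 3 to 0.03 without B6.C3H-6T replicate 2. The SHP target Cyp7a1, the rate-limiting enzyme gene of bile acid synthesis, named after its values were seen, read 10.39, 11.23 and 11.46 in C57BL/6J and 11.17, 11.71 and 11.29 in B6.C3H-6T. The C57BL/6J mouse highest in Nr0b2 was lowest in Cyp7a1, and the B6.C3H-6T mouse lowest in Nr0b2 was highest in Cyp7a1. In B6.C3H-6T the mouse highest in Nr0b2 (replicate 3, 9.58) was not lowest in Cyp7a1, since replicate 1 was lower (11.17 against 11.29). Cyp7a1 has 2 probe sets, of which the brighter is shown. A link between these genes was not tested. A single probe set measured Nr0b2.

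The sequences before the start sites of 4 genes are shown, the 3 with an unadjusted p under 0.05 and Nr0b2 with its wide spread. Each is the 250 bases before the start site given by RefSeq on GRCm38.p6, and 41 of the 45 genes had a promoter in that table. Capitals mark the receptor half-site AGGTCA, the clock element CACGTG and TCAAGG, the core of the LRH-1 site, on either strand, so that AGGTCA also appears as TGACCT. A match of TCAAGG can share its last bases with one of AGGTCA.
Ppara, chr15:85735526-85735775, plus strand: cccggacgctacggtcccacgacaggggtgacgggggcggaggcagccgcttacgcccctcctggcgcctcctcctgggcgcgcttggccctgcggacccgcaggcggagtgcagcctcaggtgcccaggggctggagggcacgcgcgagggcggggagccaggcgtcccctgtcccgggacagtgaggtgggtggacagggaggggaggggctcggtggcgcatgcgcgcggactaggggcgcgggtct
Nr1i3, chr1:171213720-171213969, plus strand: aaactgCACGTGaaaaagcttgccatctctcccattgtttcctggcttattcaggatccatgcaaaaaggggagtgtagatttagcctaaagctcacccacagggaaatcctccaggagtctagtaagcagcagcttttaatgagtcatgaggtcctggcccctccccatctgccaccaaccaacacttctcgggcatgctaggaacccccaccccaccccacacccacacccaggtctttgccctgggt
Nr1h4, chr10:89506659-89506908, minus strand: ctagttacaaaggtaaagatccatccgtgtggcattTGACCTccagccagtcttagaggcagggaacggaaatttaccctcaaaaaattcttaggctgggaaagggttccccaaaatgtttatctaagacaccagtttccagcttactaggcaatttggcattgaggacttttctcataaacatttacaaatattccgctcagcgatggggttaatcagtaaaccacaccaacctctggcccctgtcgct
Nr0b2, chr4:133553126-133553375, plus strand: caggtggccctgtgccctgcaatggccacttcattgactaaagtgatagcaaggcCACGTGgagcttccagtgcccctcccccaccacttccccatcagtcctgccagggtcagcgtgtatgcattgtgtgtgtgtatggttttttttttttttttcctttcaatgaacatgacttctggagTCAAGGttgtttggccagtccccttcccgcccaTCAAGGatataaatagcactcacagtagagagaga

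The Nr1h4 window held 1 AGGTCA match, 214 bases before the start, and the Nr1i3 window 1 CACGTG match, 244 bases before it. In Nr0b2 there was 1 CACGTG match and 2 TCAAGG matches, and none of the 3 motifs occurred in the Ppara window. Over all 32851 promoter windows of this length, 14.0% held AGGTCA, 6.02% CACGTG and 12.5% TCAAGG. Of the 60 windows of the receptor genes, 8, 5 and 6 held them (13.3%, 8.33% and 10%). A match is a run of letters and not a bound site, and the shares of the receptor genes were close to those of all promoters.

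Clock receptors were the next group. REV-ERB alpha and beta repress, and the ROR proteins activate, the same elements of clock genes such as Arntl, and Nr1d1 itself is among the strongest rhythmic transcripts of liver. The labels do not state the time of day at which tissue was taken. Nr1d1 read 9.62, 9.42 and 9.05 in C57BL/6J and 9.27, 9.14 and 9.16 in B6.C3H-6T. The C57BL/6J arrays spanned 0.57 and enclosed all B6.C3H-6T values, with a difference of -0.17 ± 0.13 (adjusted p = 0.631). Nr1d2 read 10.34, 10.28 and 9.93 against 10.20, 10.33 and 10.15, a difference of 0.04 ± 0.11. C57BL/6J replicate 3 was the lowest array for both genes. Core clock genes were pooled whatever the time of day at which each peaks, so their median measures no clock shift. Of these genes 12 of 15 were positive (56.1% of all genes were), with a median of 0.12. An unadjusted limma p under 0.05 with a positive difference was found for 3 (6.34% of all genes). These 3 were Per1 (0.56 ± 0.21), Per2 (0.34 ± 0.13) and Per3 (0.42 ± 0.18), all highest in B6.C3H-6T replicate 2, and Cry1 came next at 0.25 ± 0.12. None passed (adjusted p = 0.354 to 0.435). Arntl differed by 0.21 ± 0.13 and was also highest in that mouse (7.84), while Clock differed by -0.10 ± 0.08. Without that mouse Per1, Per2, Per3 and Cry1 differed by 0.30, 0.20, 0.21 and 0.13, and 0 core clock genes had an unadjusted p under 0.05. There was 1 without C57BL/6J replicate 2 or 3. There were 5 when B6.C3H-6T replicate 1 was left out. Alternatives that kept all 6 arrays took Per2 down to 0.23 and Per3, which has 6 probe sets, down to 0.14. Per2 and Cry1 read in the range of the Y-linked probe sets.

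Rora had 9 probe sets, more than any other receptor gene. Its representative read 9.50, 9.43 and 9.22 in C57BL/6J and 9.25, 9.22 and 9.23 in B6.C3H-6T, where C57BL/6J replicate 3 alone fell among the B6.C3H-6T values (-0.15 ± 0.08, adjusted p = 0.489). The other probe sets split by brightness. Those with means over 8 gave differences of -0.28 ± 0.08, -0.28 ± 0.07, -0.19 ± 0.07 and -0.10 ± 0.06, and the 4 dimmer ones gave 0.02 to 0.08. The probe set with -0.28 ± 0.07 read 9.28, 9.25 and 9.12 against 8.85, 9 and 8.96, with no overlap. Its adjusted p over all probe sets was 0.307. Which transcript each probe set reads was not examined, and the bright ones agreed in sign while none passed. Rorb, mainly a gene of brain and retina, read 5.71, 5.49 and 5.73 against 5.87, 5.75 and 5.79, which is in the range of the Y-linked probe sets.

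**Figure D3:**
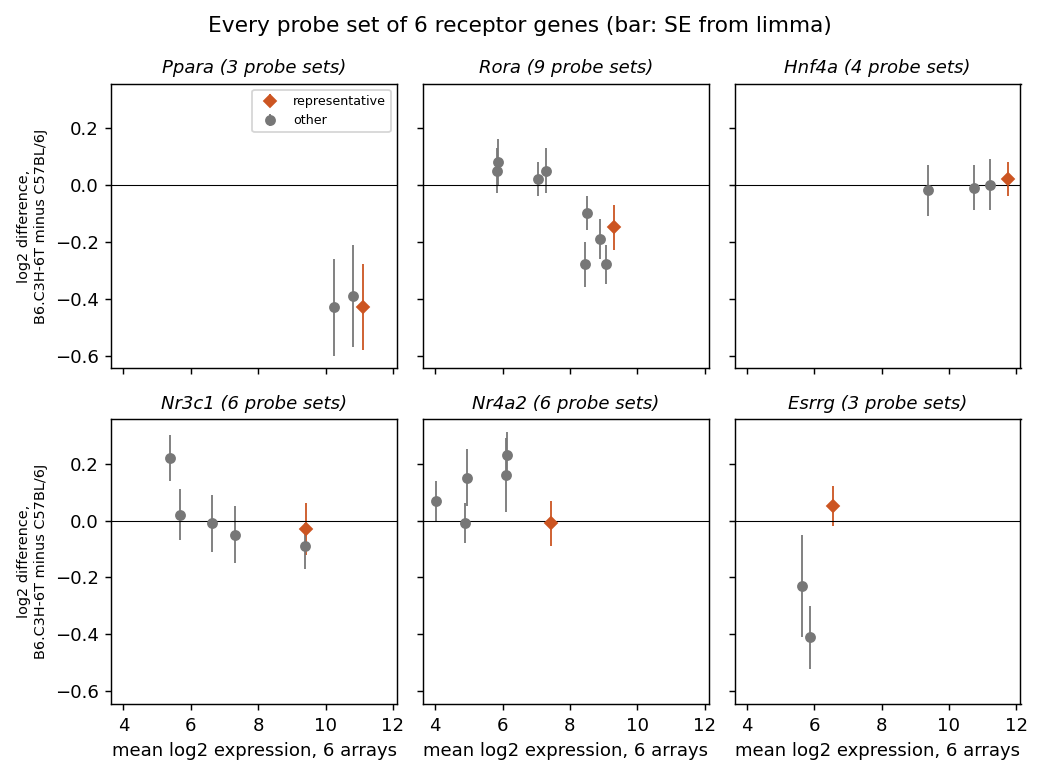
Difference between the strains (log2, bar: SE from limma) against mean log2 expression over the 6 arrays for every probe set of 6 receptor genes, with the representative in orange. All 3 probe sets of Ppara lie near -0.4 and all 4 of Hnf4a near 0, the brighter probe sets of Rora lie below 0, and those of Esrrg disagree.

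Steroid receptors differed little. The glucocorticoid receptor gene Nr3c1 read 9.54, 9.51 and 9.25 in C57BL/6J and 9.47, 9.46 and 9.29 in B6.C3H-6T. Replicate 3 of each strain was its lowest array, and the strains lay on top of each other (-0.03 ± 0.09, 95% interval -0.24 to 0.18). Of its 5 other probe sets 4 gave -0.09 to 0.02, and a dim one gave 0.22 ± 0.08 (adjusted p over all probe sets 0.404). The estrogen receptor alpha gene Esr1, which is active in female liver, read 9.77, 9.45 and 9.40 against 9.62, 9.65 and 9.41, a difference of 0.02 ± 0.11. Nr3c2, Esr2 and Pgr, for the mineralocorticoid, estrogen beta and progesterone receptors, differed by -0.09, 0.04 and -0.01, and all 3 genes read between 4.75 and 7, in the range of the Y-linked probe sets.

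RXR proteins pair with most of the ligand-gated receptors. Rxra, the main form in liver, read 10.79, 10.82 and 10.68 in C57BL/6J and 10.75, 10.68 and 10.60 in B6.C3H-6T. The ranges overlapped and the difference was -0.08 ± 0.07 (95% interval -0.24 to 0.07). Its other probe sets had the opposite sign, at 0.09 ± 0.08 and 0.09 ± 0.07, so the probe sets gave no common direction. Rxrb differed by -0.05 and Rxrg by 0.01. The retinoic acid receptor genes Rara, Rarb and Rarg differed by 0.14, 0.05 and 0.01. Rara read 7.30, 7.38 and 7.04 against 7.39, 7.38 and 7.37, and C57BL/6J replicate 3 set the lower mean of that strain. The thyroid hormone receptor genes Thrb and Thra differed by 0.09 ± 0.07 and 0.04 ± 0.07. Thrb, the main form in hepatocytes, read 6.60, 6.69 and 6.55 against 6.64, 6.73 and 6.74, in the range of the Y-linked probe sets. Thra shares the end of its locus with Nr1d1, which is read from the opposite strand. The vitamin D receptor gene Vdr, which hepatocytes barely express, differed by 0.02 and read between 5.58 and 5.95, also in the Y-linked range.

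HNF4 alpha is the receptor that maintains hepatocyte identity, and its gene was the steadiest of the main hepatic receptors after Nr1h3. Hnf4a read 11.73, 11.78 and 11.67 in C57BL/6J and 11.81, 11.72 and 11.72 in B6.C3H-6T. All 6 arrays lay within 0.14, and the 95% interval of the difference was -0.12 to 0.17. Its 3 other probe sets gave 0.00, -0.01 and -0.02 after rounding. Nr2c2, the gene of TR4 and the 1 measured member of the list on chromosome 6, read 9.10, 8.94 and 8.85 against 8.81, 8.82 and 8.87. The strains overlapped by 0.02 (-0.13 ± 0.08, adjusted p = 0.519), and of its 5 other probe sets, dimmer ones, 1 had the same sign. Its relative Nr2c1, or TR2, read 7.85, 7.97 and 7.95 against 7.88, 7.62 and 7.91, with B6.C3H-6T replicate 2 low (-0.12 ± 0.09). Of the COUP-TF genes, Nr2f1 differed by -0.10, Nr2f2 by 0.03 and Nr2f6 by -0.05, and the dim Hnf4g and Nr2e1 differed by 0.07 and 0.01.

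The remaining orphan receptor genes also did not pass the test between the strains. Esrra, the gene of ERR alpha, which drives mitochondrial genes, read 7.64, 7.72 and 7.61 in C57BL/6J and 7.71, 7.90 and 7.70 in B6.C3H-6T (0.12 ± 0.08, adjusted p = 0.571). Esrrb differed by -0.05. Esrrg differed by 0.05 at its representative probe set, while its 2 other probe sets gave -0.41 ± 0.11 and -0.23 ± 0.18. The first of these read 6.17, 6.12 and 5.98 against 5.60, 5.49 and 5.93, with no overlap and an adjusted p over all probe sets of 0.308. The probe sets of Esrrg thus disagreed, and all 3 read in the range of the Y-linked ones. The NR4A genes, which are induced quickly by many stimuli, differed by -0.05 (Nr4a1), -0.01 (Nr4a2) and -0.05 (Nr4a3). On the B6.C3H-6T arrays Nr4a1 read 8.20, 8.20 and 8.19 and in C57BL/6J 8.55, 8.06 and 8.13. Nr4a1 was added after its values were seen. The immediate early gene Egr1 read 9.88, 9.05 and 8.73 against 8.17, 8.15 and 8.10, with no overlap (-1.08 ± 0.24, adjusted p = 0.213). C57BL/6J replicate 1 was highest for both genes, while Dusp1, of the same list, was highest in B6.C3H-6T replicate 2. Nr6a1, the germ cell nuclear factor gene, differed by -0.16 ± 0.09, at 7.78, 7.61 and 7.88 against 7.53, 7.54 and 7.70. Nr5a1, a gene of adrenal and gonad, differed by 0.16 ± 0.12, at 5.65, 5.71 and 5.82 against 5.79, 6.16 and 5.69, in the Y-linked range too.

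Over the 71 other probe sets of these genes, 0 were called in limma at an adjusted p under 0.05 over all probe sets, where 0.0577% of all probe sets were. An unadjusted p under 0.05 was found for 7 (9.86%), against 10.6% of all probe sets. Of these 5 were negative, in Rora, Ppara and Esrrg, and 2 positive, in Nr3c1 and Nr4a2. The sign matched the representative probe set in 37 of the 71.

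Genes that act with or downstream of the receptors were taken from lists. In all, 209 such genes were measured, 0 were called in limma and 67 (32.1%) had an unadjusted p under 0.05, 31 negative and 36 positive, against 12.1% of all genes. Without B6.C3H-6T replicate 2 there were 40. These lists were chosen with earlier results of these data known, so a share above that of all genes is descriptive and no test. Targets of PPAR alpha stood on the negative side in 27 of 29 cases, with a median of -0.32, and 18 of the 29 had an unadjusted p under 0.05 in that direction (5.80% of all genes). The 4 of smallest p were Pex11a (-0.84 ± 0.15), a gene of peroxisome division, the pantetheinase gene Vnn1 (-1.03 ± 0.19), the thioesterase gene Acot1 (-1.34 ± 0.27) and Pdk4 (-0.98 ± 0.20), a brake on glucose oxidation. Their adjusted p ran from 0.148 to 0.196. Pdk4, read by 1 probe set, is a gene of chromosome 6, which carries the C3H segment. The part of that segment in its value was not tested. Of all PPAR alpha targets 19 had an unadjusted p under 0.05 in either direction, which became 11 without B6.C3H-6T replicate 2 and 7 in a linear fit without moderated variances. In Acot1 the values were 9.70, 10.33 and 10.47 against 8.74, 8.34 and 9.42. The list mean per array was 10.85, 11.11 and 11.04 in C57BL/6J and 10.76, 10.39 and 10.72 in B6.C3H-6T, and the mouse lowest in Ppara was also lowest here. The 1 positive target with an unadjusted p under 0.05 was Me1 (0.52 ± 0.19), a lipogenic enzyme gene, named after its value was seen.

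**Figure D4:**
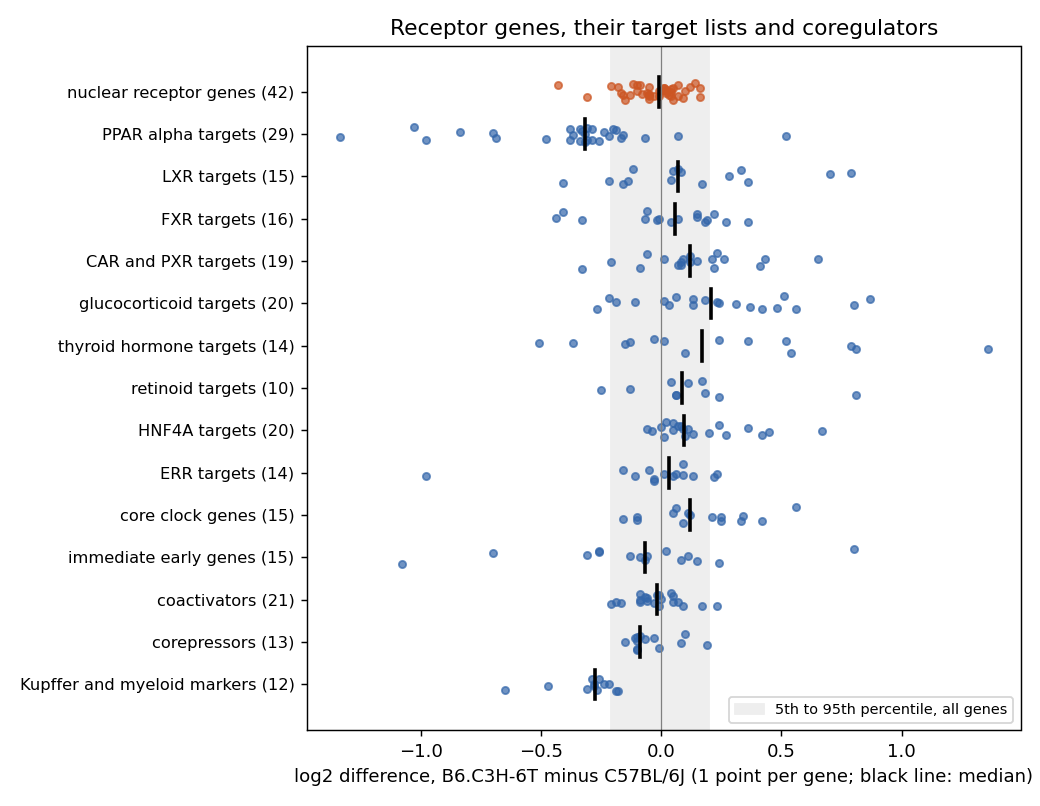
Difference between the strains (log2, B6.C3H-6T minus C57BL/6J) for each receptor gene in orange, and for each gene of the target, coregulator, clock, immediate early and myeloid lists in blue, 1 point per gene, with the number of genes beside each name. Black lines are medians and the grey band runs from the 5th to the 95th percentile of all genes (-0.21 to 0.20). Receptor genes centre on 0 (median -0.01), while PPAR alpha targets have a median of -0.32 and glucocorticoid targets of 0.21.

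Glucocorticoid targets were positive in 16 of 20 cases, with a median of 0.21 and 8 at an unadjusted p under 0.05, all positive (6.34% of all genes), beside a glucocorticoid receptor gene at -0.03. They were led by Ddit4 (0.87 ± 0.14), an mTOR inhibitor gene, Klf15 (0.51 ± 0.08), the tyrosine aminotransferase gene Tat (0.42 ± 0.09) and Errfi1 (0.37 ± 0.09). Klf15, read by 1 probe set, is a gene of chromosome 6, and the part of the C3H segment in its value was not tested. Ddit4 read 7.50, 7.16 and 7.33 against 7.90, 8.48 and 8.23 (adjusted p = 0.119), and without B6.C3H-6T replicate 1 it passed (adjusted p = 0.0367). Of receptor chaperones and activators 5 of 7 were positive, with a median of 0.14. Hsd11b1, whose enzyme regenerates active glucocorticoid, differed by 0.20 ± 0.08, Hsp90aa1 by 0.14, Fkbp4 by 0.19 and Fkbp5, a target as well as a chaperone, by -0.27 (-0.09 without B6.C3H-6T replicate 1). Fkbp4 too is a gene of chromosome 6.

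Thyroid hormone targets were positive in 9 of 14 cases, with 5 positive and 3 negative at an unadjusted p under 0.05, where all genes gave 56.1% positive and, at that p, 6.34% positive and 5.80% negative. Leaving out replicate 2 of either strain turned the 8 into 5. Upp2 (0.81 ± 0.20), Acacb (0.54 ± 0.14) and the lipogenic gene Thrsp (1.36 ± 0.41) were positive and the mitochondrial glycerol phosphate dehydrogenase gene Gpd2 (-0.37 ± 0.11) negative, so the list had no common direction. Thrsp read 11.68, 11.08 and 10.82 against 11.88, 13.63 and 12.14, and without B6.C3H-6T replicate 2 it differed by 0.82. LXR targets gave 10 positive of 15 and a median of 0.07, with 3 positive and 2 negative at that p, and 3 in all without C57BL/6J replicate 1. The lipogenic members Scd1 (0.33 ± 0.10), Fasn (0.79 ± 0.29) and Srebf1 (0.70 ± 0.28) were positive and the phospholipid transfer gene Pltp (-0.41 ± 0.15) negative. Without B6.C3H-6T replicate 2, Fasn differed by 0.40, Srebf1 by 0.33 and Pltp by -0.26. Scd1 differed by 0.97 with its other probe set and by 0.65 with the mean of both. FXR targets were listed whatever the direction in which FXR acts on them, with the SHP target Cyp7a1 among them. Their signs are thus no measure of FXR activity. The targets were mixed, with 9 positive of 16, a median of 0.05, and 5 positive and 2 negative at that p. These 7 became 1 without B6.C3H-6T replicate 2, 4 without B6.C3H-6T replicate 1 or any single C57BL/6J array, and 2 in the fit without moderated variances. They included the syndecan gene Sdc1 (0.22 ± 0.06), the bile acid conjugation gene Baat (0.15 ± 0.06), the phospholipid exporter gene Abcb4 (-0.33 ± 0.14) and Pltp, shared with the LXR list. Abcb4 differed by -0.20 without B6.C3H-6T replicate 2.

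Targets of CAR and PXR were positive in 15 of 19 cases, with a median of 0.12, and 5 positive and 2 negative at an unadjusted p under 0.05, beside receptor genes at -0.21 and -0.10. Of all genes 56.1% were positive, and 6.34% were positive and 5.80% negative at that p. The 7 became 3 without replicate 2 of either strain, and also without C57BL/6J replicate 3. Sult1d1 (0.43 ± 0.08), a sulfotransferase gene, Cyp2b9 (0.26 ± 0.07) and Cyp2b13 (0.23 ± 0.08) were positive and Gadd45b (-0.33 ± 0.11) negative. HNF4 alpha targets were positive in 17 of 20 cases, with a median of 0.10 and 5 at that p, all positive, among them Tat, Cyp2d9 (0.45 ± 0.15), the pyruvate kinase gene Pklr (0.67 ± 0.23) and the coagulation factor gene F7 (0.20 ± 0.07). Without B6.C3H-6T replicate 2, Cyp2d9 differed by 0.25 and Pklr by 0.34. The 5 became 3 without B6.C3H-6T replicate 1 or 2 or without C57BL/6J replicate 3, and became 8 when B6.C3H-6T replicate 3 was left out. Retinoid targets were positive in 8 of 10 cases, against 56.1% of all genes. Among the positive ones, Stra6, Aldh1a2, Cdx1 and Crabp2 differed by 0.06 to 0.17. These genes had strain means of 4.27 to 5.52, in the range of the Y-linked probe sets, and may not be expressed. Cyp26a1, whose enzyme degrades retinoic acid, read 8.47, 7.72 and 7.81 against 8.37, 9.32 and 8.73 (0.81 ± 0.25, adjusted p = 0.298), and Rai14, Lrat and Tgm2 differed by -0.25, 0.18 and -0.13. Rai14 differed by -0.15 without B6.C3H-6T replicate 2, and by 0.21 with its probe set of median p. ERR targets had a median of 0.03, with Pdk4 negative and the mitochondrial genes Mdh2 (0.22), Sdhb (0.23) and Acadm (-0.16) on both sides. Immediate early genes had a median of -0.07, with Egr1 and Jun (-0.70) negative and Dusp1 (0.80) and Zfp36 (0.24) positive. Jun differed by -0.34 without C57BL/6J replicate 1, Dusp1 by 0.44 without B6.C3H-6T replicate 2 and Zfp36 by 0.13 without C57BL/6J replicate 3.

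Coregulators carry the receptors' signal to chromatin. Coactivators were negative in 13 of 21 cases, against 43.9% of all genes, with a median of -0.02, and 2 positive and 2 negative at an unadjusted p under 0.05, against 12.1% of all genes in either direction. Without 1 array these 4 became 1 (B6.C3H-6T replicate 3), 2 (replicate 2 of either strain) or 3. These were Cited2 (-0.21 ± 0.06), Ncoa7 (-0.19 ± 0.08), Ncoa3 (0.17 ± 0.07) and Ppargc1a (0.23 ± 0.09, and 0.13 without C57BL/6J replicate 2). Ppargc1a is the gene of PGC-1 alpha, a partner of PPAR alpha and ERR alpha. Alternatives that kept all 6 arrays took Ncoa3 to 0.05 and Ncoa7 to -0.08. Ncoa7 read between 5.51 and 5.82, in the range of the Y-linked probe sets. Corepressors were negative in 10 of 13 cases, with a median of -0.09 and 1 positive and 1 negative at that p. The count was 0 without B6.C3H-6T replicate 2 or C57BL/6J replicate 3, and 1 when any other single array was left out. Those of smallest p were Tbl1x at 0.19 ± 0.07, Tbl1xr1 at -0.15 ± 0.06, Hdac1 at -0.10 and Hdac2 at -0.11. None of these 8 genes passed (adjusted p = 0.287 to 0.570).

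Some arrays were lowest or highest for more receptor genes than others, though no share of the spread was computed. C57BL/6J replicate 3 was the lowest of the 6 arrays for 14 of the 42 receptor genes (33.3%), against 23.1% of all genes, and B6.C3H-6T replicate 2 was lowest for 9 (21.4%), against 18.1%. C57BL/6J replicate 1 was the highest array for 13 receptor genes (31.0%), against 18.3% of all genes. B6.C3H-6T replicate 2 was the highest array for 2 receptor genes (4.76%), against 19.4% of all genes. The low values of that mouse in Ppara, Nr1i2, Nr1i3, Nr1h4, Nr0b2 and Nr2c1 went with its high values in Fasn, Srebf1, Thrsp and Per1 and its low myeloid marker mean of 9.26. Their part in the receptor values was not tested.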

How the data were processed

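The authors deposited a log2 value for each probe set on each array. The submitters' processing notes name RMA and affy, without versions, and per the labels images were quantified with GCOS 1.2. Of 45101 probe sets, 64 controls were left out and 45037 tested: 34945 were paired with 1 gene, 932 with several and 9160 with none. Symbols were updated to a RefSeq gene table (GRCm38.p6). The probe set with the highest mean over the 6 arrays represented each of 18193 genes.

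The test of B6.C3H-6T against C57BL/6J used lmFit and eBayes of limma 3.58.1 (R 4.3.3) with no covariate or filter, and p was adjusted by Benjamini-Hochberg over all genes at 0.05. The fit was tested on simulated data. Each mouse is a separate sample. A p-value sets the difference between strains against the spread between mice, which eBayes draws toward that of all probe sets.

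The receptor genes and lists were chosen with earlier results of these data known, and lists carry no test. Full values are given for the 12 receptor genes of smallest p and 14 fixed ones (23 in all, as some are both), and for up to 4 genes of smallest p per list. Other receptor genes are given by their differences, and genes added after their values were seen are named as such. Alternatives covered normalization, dim probe sets, variance moderation, choice of probe set and each array left out.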

Additional observations from a re-analysis of the deposited data

How the results depend on the processing

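With 3 mice per strain, the 95% interval of a receptor gene's difference reached a median of 0.18 to either side, and 0.74 for Nr0b2. The count of receptor genes called was 0 under all 15 alternatives run. Their count at an unadjusted p under 0.05 was 1 in a linear fit without moderated variances, and 1 to 5 without 1 array (5 without C57BL/6J replicate 3, 1 without B6.C3H-6T replicate 2). Their median difference was -0.05 among the brighter probe sets and -0.03 to 0.00 without 1 array. The list genes at an unadjusted p under 0.05 numbered 28 without moderated variances and 40 to 72 without 1 array, and 0 to 1 were called without 1 array, Ddit4 without B6.C3H-6T replicate 1. The cause was not tested. No paired analysis was possible because the labels give the mice no replicate numbers shared between the strains.

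None of the genes whose sign turned had passed, and all but Rai14, a retinoid target, are receptor genes. With arrays centred on their medians, the sign turned for Esr1 (-0.01), Rxrg (-0.02), Rarg (-0.02), Vdr (-0.01), Hnf4a (0.00) and Nr2e1 (-0.01). With quantile normalization, the sign turned for Nr3c1 (0.00), Vdr (-0.01), Hnf4a (-0.01), Nr2e1 (-0.02) and Nr4a2 (0.01). With the mean of all probe sets, the sign turned for Nr3c1 (0.01), Pgr (0.03), Rxra (0.03), Vdr (-0.03), Nr2f2 (-0.05), Esrrg (-0.20) and Nr4a2 (0.10). Without probe sets of suffix _x_at and _s_at, the sign turned for Hnf4a (-0.01). With the probe set of median p, the sign turned for Nr5a2 (0.04), Rxra (0.09), Vdr (-0.07), Hnf4a (-0.02), Nr2c2 (0.09), Nr2f2 (-0.11), Esrrg (-0.23), Nr4a2 (0.16) and Rai14 (0.21). Without 1 array the sign turned for Nr0b2 (-0.63 to 0.03), Nr5a2 (-0.11 to 0.03), Nr3c1 (-0.12 to 0.03), Esr1 (-0.05 to 0.13), Esr2 (-0.05 to 0.13), Pgr (-0.02 to 0.01), Nr1d2 (-0.08 to 0.12), Rxrb (-0.14 to 0.01), Rxrg (-0.01 to 0.04), Rarb (-0.08 to 0.13), Rarg (-0.07 to 0.11), Thra (0.00 to 0.08), Vdr (-0.05 to 0.13), Hnf4a (-0.01 to 0.05), Nr2e1 (-0.04 to 0.06), Nr2f2 (-0.03 to 0.09), Nr2f6 (-0.10 to 0.02), Nr4a1 (-0.14 to 0.11), Nr4a2 (-0.06 to 0.07) and Nr4a3 (-0.20 to 0.04).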
